A study of Homo sapiens with 27 samples.

Results

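The cytosolic heat shock proteins were followed through 501mel cells, a human melanoma line with high MITF, as the RNA of 10 genes. The members were chosen by symbol: HSPA1A, HSPA1B, HSPA8, HSP90AA1, HSP90AB1, DNAJB1, HSPH1, HSPB1, BAG3 and HSF1, which are 10 of the 13523 genes in the deposited table. The choice was made with earlier results of these data in view, in which HSPA1B stood among the genes lowest in HBSS and in Torin against untreated WT cells. Changes of the members in those comparisons of WT cells are therefore given below as a description, without a test.

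RNA was profiled with 3′ end libraries, in 9 groups of 3 libraries by their labels. WT 501mel cells were not treated, were kept for 12 h in HBSS (saline and sugar, with no amino acid supply), or were given 250 nM Torin1, an inhibitor of the kinase mTOR, for 12 h. Cas9 knockouts of TFE3 (TFE3 KO), of TFEB (TFEB KO) and of both (DKO) were each studied as a 12 h control and after 12 h of 250 nM Torin1. TFE3 and TFEB are relatives of MITF that mTOR can hold in the cytoplasm in fed cells. In this line, however, the study describes TFE3 as mostly nuclear, and tagged TFEB as bound to the genome, without mTOR inhibition. It reads its knockout data as compatible with both factors being active in fed cells, so untreated cells are not taken here to lack their activity. Each knockout is 1 clone, so genotype and clone cannot be told apart, and the replicates of a group carry no label of separate origin. Untreated WT cells have a label without a time, unlike the knockout controls.

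Cells meet misfolded proteins with heat shock proteins, chaperones that bind unfolded stretches of other proteins. HSP70 proteins (HSPA1A, HSPA1B, HSPA8) take up clients delivered by J-domain proteins such as DNAJB1 and release them with the help of HSPH1 and BAG3, and HSP90 proteins (HSP90AA1, HSP90AB1) act later, on near-native clients that include many kinases. HSPB1 is a small heat shock protein that holds unfolded proteins without ATP. HSF1 is the transcription factor that, once released from chaperones, binds heat shock elements in the promoters of these genes, and in tumour cells it is active without heat.

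Heat shock elements are runs of GAA units in alternating orientation, and they are shown here because HSF1 binds them. The promoter windows were taken from RefSeq (GRCh38.p14), with 1 start per gene and 250 bases before it to 50 after it; 9 of the 10 members had a window. Capitals mark the GAA and TTC units of a match to GAANNTTC or TTCNNGAA. The stretches are those of HSPA1A at chr6:31815381-31815500 on the plus strand, HSPA1B at chr6:31827577-31827696 on the plus strand, HSPA8 at chr11:123062137-123062256 on the minus strand, and HSPB1 at chr7:76302435-76302554 on the plus strand.
HSPA1A: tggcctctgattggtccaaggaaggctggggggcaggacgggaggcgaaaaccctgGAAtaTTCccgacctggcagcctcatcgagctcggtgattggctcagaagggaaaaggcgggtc
HSPA1B: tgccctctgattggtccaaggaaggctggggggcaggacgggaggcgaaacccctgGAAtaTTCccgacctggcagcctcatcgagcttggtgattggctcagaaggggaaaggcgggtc
HSPA8: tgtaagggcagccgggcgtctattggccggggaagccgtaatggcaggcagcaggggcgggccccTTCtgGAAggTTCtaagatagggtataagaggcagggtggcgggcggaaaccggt
HSPB1: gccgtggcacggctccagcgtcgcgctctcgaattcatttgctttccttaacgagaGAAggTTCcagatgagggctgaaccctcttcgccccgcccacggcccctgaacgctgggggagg
HSPA1A and HSPA1B held the same pair, GAANNTTC, at a like distance from the start (from -106 and from -105), in stretches identical at 116 of 120 bases. HSPA8 held 2 runs of 3 alternating units, the one shown at -55 to -43 and another at -230 to -218. HSPB1 held 1 pair, from -182. In the windows of HSP90AA1, HSP90AB1, DNAJB1, HSPH1 and BAG3 neither pair was found, which says only that these letters are not in these windows. Of 35116 promoter windows, 6.77% held GAANNTTC, 7.74% held TTCNNGAA and 0.49% held 3 units in a row (GAANNTTCNNGAA or TTCNNGAANNTTC). The letters read the same on both strands, apart from the run of 3 units, which was searched in both forms, and each such run holds both pairs. The E-box CACGTG, which MITF, TFE3 and TFEB can bind, was in 7.26% of windows and in none of the 9 members' windows. Other starts of these genes were not searched. The DNAJB1 window (chromosome 19, 14529222 to 14529521) lies inside the annotated gene (14514769 to 14560391, minus strand). The HSPA8 window (chromosome 11, 123062087 to 123062386) also lies inside its annotated gene (123057489 to 123063230, minus strand).

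The values below are normalised values per library, reads scaled to the library. Libraries held 4147050 to 6526392 reads, so 3 reads correspond to 0.460 to 0.711. The columns of WT HBSS replicate 3 and WT Torin replicate 1 were identical in every gene; both were left out, so WT HBSS and WT Torin have 2 libraries each and 25 libraries were used. The melanocytic genes MITF, PMEL, MLANA, TYR, DCT, TYRP1 and SOX10 were detected in every group, with PMEL between 2042 ± 105 (SD, n = 3) in DKO control and 4386 ± 111 (SD, n = 2) in WT HBSS. AXL and NGFR, which mark undifferentiated melanoma cells, had group means of at most 6.55. Against untreated WT, AXL was higher in TFEB KO control (log2 difference 1.98, limma adjusted p 2.72e-06) and DKO control (1.11, 0.00619). It did not pass in TFE3 KO control (-0.09, 0.911), and NGFR passed in none of these. TFE3 was 24.0 ± 0.285 (SD, n = 3) in untreated WT and 6.30 ± 1.27 (SD, n = 3) in TFE3 KO control, and TFEB was 3.25 ± 0.827 in untreated WT, 1.11 ± 0.485 in TFEB KO control and 0.681 ± 0.764 in TFE3 KO control (SD, n = 3 each). These 3′ end reads need not cover the edited sites, so they do not check the edits. In such bulk samples fewer cells expressing a gene and less RNA per cell cannot be told apart.

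HSPA1A and HSPA1B lie in tandem on chromosome 6 (hg38, GENCODE v44; 31815543 to 31817946 and 31827738 to 31830254, plus strand) and encode the near-identical stress-inducible HSP70. HSPA1A had 7 reads in all 25 libraries together, at most 2 in one, below 3 reads everywhere, and HSPA1B had 4193. HSPA1A was therefore not tested, and 9 of the 10 members were. The last 300 bases of the annotated HSPA1A and HSPA1B transcripts shared none of 251 stretches of 50 bases, whereas 75.1% of such stretches of the whole HSPA1A transcript occur in HSPA1B. How the counting treated reads that fit both genes is not given in the sources used here, and a read ending in the shared part could belong to either; an annotated same-strand gene also overlaps HSPA1B. The 2 genes are therefore read together, and how much HSPA1A RNA the HSPA1B values hold, if any, was not tested.

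HSPA1B, the inducible HSP70, was at 63.6, 72.1 and 58.9 in untreated WT cells. It was at 8.51 and 5.86 in HBSS and at 10.8 and 10.2 in Torin. No treated library came near an untreated one, and the log2 difference from untreated WT was -3.02 ± 0.16 (SE) in HBSS and -2.52 ± 0.16 in Torin, given as a description. All log2 differences are on the log2(value + 1) scale, with the standard error of a limma fit to all groups.

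In TFEB KO, HSPA1B was at 90.6, 81.9 and 90.0 in control cells and at 11.6, 9.89 and 9.16 in Torin. In TFE3 KO it was at 29.5, 28.2 and 23.9 in control cells and at 6.78, 6.90 and 6.45 in Torin. In DKO it was at 32.6, 36.6 and 40.7 in control cells and at 8.46, 9.10 and 10.4 in Torin. The controls of the 4 genotypes thus spread widely, without overlap between any of the groups, while all treated libraries lay between 5.86 and 11.6. The fall with Torin passed in each knockout, with log2 changes of -2.99 ± 0.15 in TFEB KO (adjusted p 5.85e-22), -1.86 ± 0.15 in TFE3 KO (3.03e-15) and -1.86 ± 0.15 in DKO (3.75e-15), from limma with Benjamini-Hochberg adjustment over 13052 genes. HSPA1B was the member with the lowest log2 change with Torin in each knockout. It was also lowest in both WT comparisons, where its low place was known when the members were chosen.

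**Figure D1:**
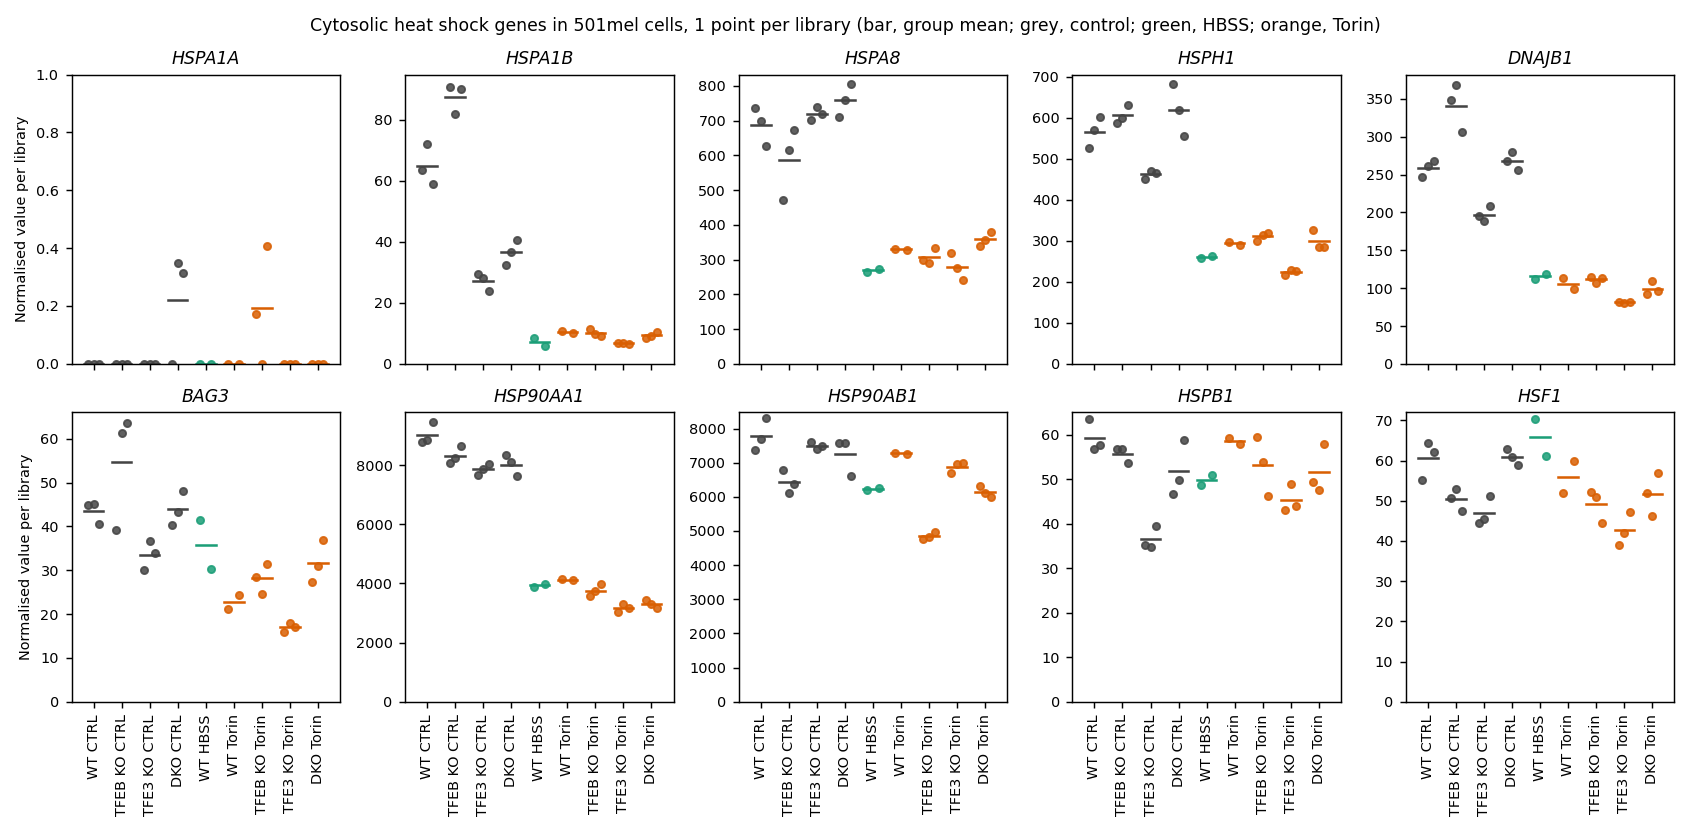
Normalised value of each member gene (vertical axis, starting at 0 and scaled for each gene) in the 25 libraries, by group (horizontal axis); points are libraries, bars are group means, and grey, green and orange mark control, HBSS and Torin. HSPA1B, HSPA8, HSPH1, DNAJB1 and HSP90AA1 sit lower in every HBSS and Torin library than in any control library, whereas HSPB1 and HSF1 do not, and HSPA1A stays below 0.5.

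HSPA8, the constitutive HSP70 that serves folding in unstressed cells, was at 737, 700.3 and 626 in untreated WT, at 266 and 274 in HBSS, and at 331 and 329 in Torin. In the knockouts it ranged from 472 to 805 in the 9 control libraries and from 242 to 379 in the 9 Torin libraries, with no overlap. Its log2 change with Torin was -1.37 ± 0.09 in TFE3 KO (limma adjusted p 4.28e-14), -1.08 ± 0.09 in DKO (1.75e-11) and -0.92 ± 0.09 in TFEB KO (1.85e-09). The WT differences were -1.34 ± 0.11 in HBSS and -1.06 ± 0.11 in Torin, as a description. HSPA8 lies on chromosome 11 (123057489 to 123063230, minus strand), where 3 small nucleolar RNA genes sit within it on the same strand.

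HSPH1, the HSP110 that exchanges the nucleotide of HSP70, behaved much like HSPA8 in size. It was at 526, 569 and 602 in untreated WT, at 258 and 264 in HBSS and at 298 and 290.1 in Torin. In the knockouts, control libraries ranged from 450.0 to 683 and Torin libraries from 217 to 328. Its log2 change with Torin was -1.04 ± 0.07 in TFE3 KO (limma adjusted p 3.14e-17), -1.05 ± 0.07 in DKO (3.34e-17) and -0.96 ± 0.07 in TFEB KO (1.45e-15), so the 3 genotypes lay within 0.1 of each other on the log2 scale.

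DNAJB1, the J-domain protein that delivers clients to inducible HSP70, was at 247, 261 and 268 in untreated WT, at 113 and 119 in HBSS and at 113 and 99.1 in Torin. Among the knockout controls it was at 349, 368 and 306 in TFEB KO, at 195, 188 and 208 in TFE3 KO and at 268, 279.9 and 256 in DKO. After Torin it was at 114, 107 and 114 in TFEB KO, at 81.2, 80.8 and 82.0 in TFE3 KO and at 92.9, 109 and 96.0 in DKO. The order of the control groups was that of HSPA1B only at its ends, TFEB KO highest and TFE3 KO lowest, with WT and DKO overlapping. The log2 change with Torin was -1.60 ± 0.08 in TFEB KO (limma adjusted p 1.26e-21), -1.43 ± 0.08 in DKO (3.67e-20) and -1.27 ± 0.08 in TFE3 KO (1.90e-18).

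BAG3, which links HSP70 to selective autophagy, was at 44.9, 45.1 and 40.6 in untreated WT and at 21.1 and 24.4 in Torin, but at 41.4 and 30.3 in HBSS, where it overlapped the untreated libraries. Its log2 change with Torin was -0.94 ± 0.14 in TFE3 KO (limma adjusted p 3.36e-07), -0.91 ± 0.14 in TFEB KO (1.38e-06) and -0.46 ± 0.14 in DKO (0.00603). The DKO libraries were at 40.4, 43.4 and 48.2 as controls and at 27.4, 30.9 and 37.0 in Torin, and without DKO Torin replicate 1 the DKO change, -0.37, did not pass.

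The cytosolic HSP90 genes parted. HSP90AA1, the inducible HSP90, was at 8788, 8847 and 9461 in untreated WT, at 3889 and 3983 in HBSS and at 4155 and 4103 in Torin. In the knockouts it ranged from 7621 to 8633 in control libraries and from 3022 to 3967 in Torin libraries. Its log2 change with Torin was -1.32 ± 0.05 in TFE3 KO (limma adjusted p 5.57e-26), -1.27 ± 0.05 in DKO (2.38e-25) and -1.15 ± 0.05 in TFEB KO (3.89e-23). HSP90AA1 (chromosome 14, 102080742 to 102139699, minus strand) and WDR20 overlap on opposite strands.

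HSP90AB1, the constitutive HSP90 (chromosome 6, 44246166 to 44253888, plus strand), was at 7377, 7692 and 8296 in untreated WT, at 6196 and 6269 in HBSS and at 7279 and 7267 in Torin. The Torin libraries of WT lay just under the lowest untreated library. In TFEB KO it was at 6778, 6107 and 6374 in control cells and at 4774, 4823 and 4973 in Torin, a log2 change of -0.40 ± 0.05 (limma adjusted p 2.33e-08). The change was -0.24 ± 0.05 in DKO (1.82e-04) and -0.13 ± 0.05 in TFE3 KO (0.042). The TFE3 KO call was lost when any of its 6 libraries was left out (-0.14 to -0.11) and with edgeR (-0.09) or DESeq2 (-0.10) on the recovered reads.

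HSP90AA1 and HSP90AB1 together made up 88.6% to 93.9% of the members' summed value in every library, so the sum follows them. The sum was 18561 ± 815 (SD, n = 3) in untreated WT, 12280 ± 56.9 (SD, n = 2) in WT Torin and 10973 ± 118 (SD, n = 2) in WT HBSS. As a share of all reads counted in genes, the 10 members took 1.84% ± 0.091 (SD, n = 3), 1.25% ± 0.0035 (SD, n = 2) and 1.01% ± 0.0078 (SD, n = 2). In the knockouts the share was between 1.68% and 1.75% in controls and between 1.04% and 1.07% in Torin, as group means. Reads mark 3′ ends, so these sums were not divided by transcript length.

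HSPB1 and HSF1 moved little. HSPB1 (chromosome 7, 76302673 to 76304295, plus strand) was at 63.6, 56.8 and 57.8 in untreated WT, at 59.3 and 57.8 in Torin and at 48.8 and 50.9 in HBSS. In TFE3 KO it was at 35.1, 34.8 and 39.6 in control cells and at 43.0, 49.0 and 44.1 in Torin, the only member that rose with Torin in a knockout (0.31 ± 0.11, limma adjusted p 0.0157). This call was lost without TFE3 KO control replicate 1 (0.28) or 2 (0.27) and without TFE3 KO Torin replicate 2 (0.25). In TFEB KO and DKO its log2 changes were -0.07 ± 0.11 (0.631) and -0.00 ± 0.11 (0.989).

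HSF1, the factor behind the heat shock response, was at 55.1, 64.3 and 62.3 in untreated WT, at 70.4 and 61.1 in HBSS and at 52.0 and 60.0 in Torin, both overlapping the untreated libraries. Its log2 change with Torin did not pass in TFE3 KO (-0.14 ± 0.11, limma adjusted p 0.283), TFEB KO (-0.04 ± 0.11, 0.821) or DKO (-0.24 ± 0.11, 0.0583). HSF1 is regulated mostly as a protein, which these RNA values do not measure.

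**Figure D2:**
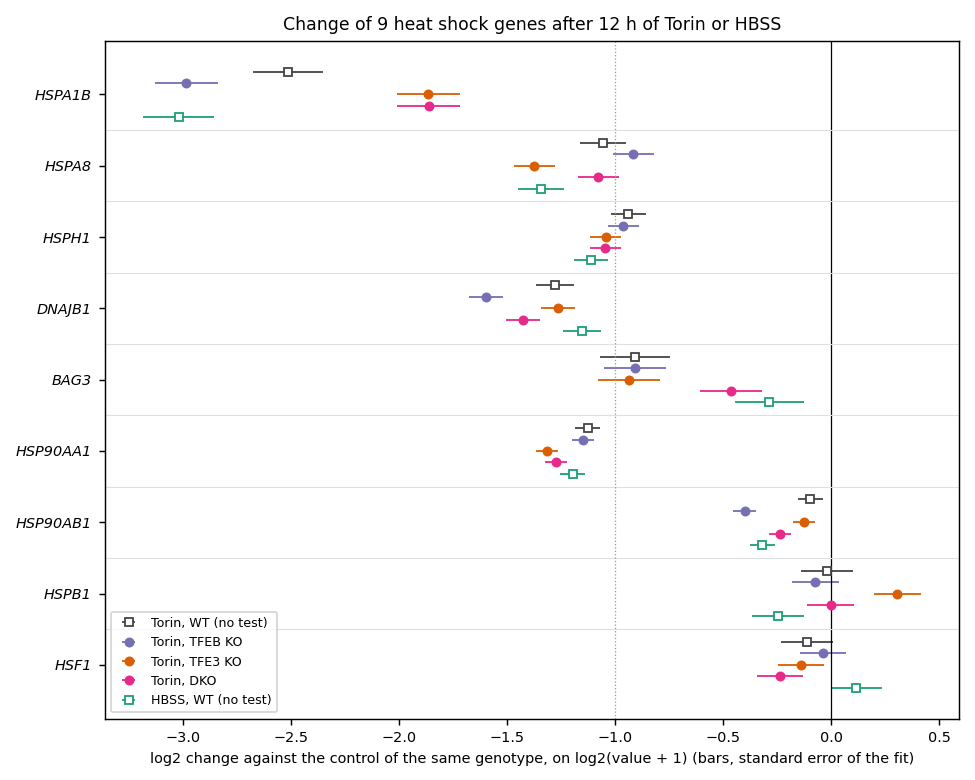
Log2 change of the 9 tested members (rows) after 12 h of Torin or HBSS against the control of the same genotype, on log2(value + 1), with bars for the standard error of the fit; filled points are tested and open squares, for WT, are a description. HSPA1B lies between -3.02 and -1.86, HSPA8, HSPH1, DNAJB1 and HSP90AA1 lie between -1.60 and -0.92, and HSP90AB1, HSPB1 and HSF1 lie between -0.40 and 0.31.

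Counted over the members, Torin gave 8 of 9 that passed in TFE3 KO (7 lower, 1 higher), where 51.4% of all genes tested passed, 7 of 9 in TFEB KO (all lower), where 38.3% passed, and 7 of 9 in DKO (all lower), where 51.6% passed. Members called lower, that is with a log2 change of -1 or below as well, were 5 of 9 in TFE3 KO against 4.69% of all genes, 3 of 9 in TFEB KO against 1.65%, and 5 of 9 in DKO against 4.29%. HSPA1B, DNAJB1 and HSP90AA1 were called lower in each of the 3 knockouts, and HSPA8 and HSPH1 in TFE3 KO and DKO. The members had a median log2 change of -1.04 (TFE3 KO), -0.92 (TFEB KO) and -1.05 (DKO), beside 0.02, 0.003 and 0.02 over all genes. In WT, 5 of 9 members were at least 2-fold lower in HBSS, beside 6.20% of all genes, and 4 of 9 in Torin, beside 4.01%; these WT counts rest on comparisons known when the members were chosen and nothing is read from them.

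The Torin responses of TFE3 KO and TFEB KO were compared directly with an interaction term. The response differed for 3 of 9 members, where 7.68% of all genes passed. HSPA1B fell less in TFE3 KO than in TFEB KO (difference of log2 changes 1.12 ± 0.21, limma adjusted p 1.60e-04), from controls that were also lower. HSP90AB1 fell less in TFE3 KO as well (0.28 ± 0.07, 0.0125), and HSPA8 fell more (-0.46 ± 0.13, 0.0289). The HSP90AB1 difference did not pass without TFEB KO control replicate 1 (0.24), and the HSPA8 difference did not pass in a fit to the 4 compared groups alone or without TFEB KO control replicate 1, TFEB KO Torin replicate 3, TFE3 KO control replicate 2 or 3, or TFE3 KO Torin replicate 2 or 3 (-0.46 to -0.31 without one of them). DNAJB1 fell from higher control values in TFEB KO, but the difference in its response, 0.33 ± 0.11, did not pass (0.0609). The responses of DKO against the single knockouts, and of WT against any knockout, were not tested.

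HBSS and Torin were also compared within WT cells. There 4 of 9 members passed, beside 49.2% of all genes. BAG3 was higher in HBSS (0.62 ± 0.18, limma adjusted p 0.003), while HSPA1B (-0.51 ± 0.18, 0.0158), HSP90AB1 (-0.22 ± 0.06, 0.00352) and HSPA8 (-0.29 ± 0.12, 0.0381) were lower in HBSS. These rest on 2 libraries a group. The same libraries enter the comparisons known when the members were chosen, so these p-values may not be free of that choice. BAG3 did not pass without WT HBSS replicate 1 (0.40), HSPA1B did not pass without WT HBSS replicate 2 (-0.27) or WT Torin replicate 2 (-0.47), with DESeq2 (-0.59) or in a fit to the compared libraries alone (-0.51), and HSPA8 did not pass without any of the 4 libraries (-0.31 to -0.27). With the identical column kept as a WT Torin library, HSP90AB1 alone passed.

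Among untreated cells the largest genotype difference was that of HSPA1B. Against WT it was lower in TFE3 KO (-1.22 ± 0.15, limma adjusted p 1.11e-08) and in DKO (-0.81 ± 0.15, 5.24e-05), and higher in TFEB KO (0.43 ± 0.15, 0.0369). The TFEB KO call was lost when any of WT control replicates 1 and 3 or TFEB KO control replicates 1, 2 and 3 was left out (0.36 to 0.48). The WT control libraries also enter the comparisons known when the members were chosen, so the direct comparison of the single knockouts, which does not use them, is given beside these: HSPA1B was 3.15-fold lower in TFE3 KO than in TFEB KO (-1.65 ± 0.15, 9.14e-13).

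In TFE3 KO, 6 of 9 members were lower than in WT and none higher, where 9.41% of all genes passed. HSPB1 followed HSPA1B (-0.69 ± 0.11, limma adjusted p 6.07e-06), at 35.1, 34.8 and 39.6 against 56.8 to 63.6 in WT. DNAJB1 (-0.39 ± 0.08, 4.53e-04), HSPH1 (-0.29 ± 0.07, 0.00421), HSF1 (-0.36 ± 0.11, 0.0228) and HSP90AA1 (-0.20 ± 0.05, 0.00754) were lower by less than 1.5-fold. The HSF1 call was lost without WT control replicate 2 or 3 or TFE3 KO control replicate 1 or 2 (-0.34 to -0.31), and the HSP90AA1 call without WT control replicate 3 or TFE3 KO control replicate 1 (-0.18 to -0.17) and in a fit to the compared libraries alone (-0.20). HSPA8 stood apart, at 703, 740.3 and 718 in TFE3 KO, overlapping WT at 626 to 737 (0.07 ± 0.09, 0.741), and BAG3 (-0.37 ± 0.14, 0.10) did not pass except in that fit to the compared libraries alone (0.0354).

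In TFEB KO, 3 of 9 members passed against WT, 2 higher and 1 lower, where 14.6% of all genes passed. DNAJB1 was higher (0.39 ± 0.08, limma adjusted p 4.43e-04), as was HSPA1B above, and HSP90AB1 was lower (-0.28 ± 0.05, 1.68e-04). In DKO, 2 of 9 passed, both lower, where 13.1% of all genes passed: HSPA1B above and HSP90AA1 (-0.17 ± 0.05, 0.0183), the latter lost without WT control replicate 3 or DKO control replicate 3 (both -0.14), with edgeR (-0.16) and in a fit to the compared libraries alone (-0.17). DNAJB1, at 268, 279.9 and 256 in DKO, did not pass against WT (0.05 ± 0.08, 0.763).

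Between the untreated single knockouts, 7 of 9 members passed, where 29.9% of all genes passed. Lower in TFE3 KO than in TFEB KO were HSPA1B above, DNAJB1 (-0.78 ± 0.08, limma adjusted p 6.55e-11), HSPB1 (-0.60 ± 0.11, 2.41e-05), HSPH1 (-0.39 ± 0.07, 2.55e-05) and BAG3 (-0.66 ± 0.14, 3.43e-04). Higher in TFE3 KO were HSP90AB1 (0.22 ± 0.05, 8.23e-04) and HSPA8 (0.31 ± 0.09, 0.0117). The HSPA8 difference was lost without TFEB KO control replicate 1 (0.16), at 472 the lowest of the untreated libraries, whose TFEB KO companions were at 615 and 673.

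**Figure D3:**
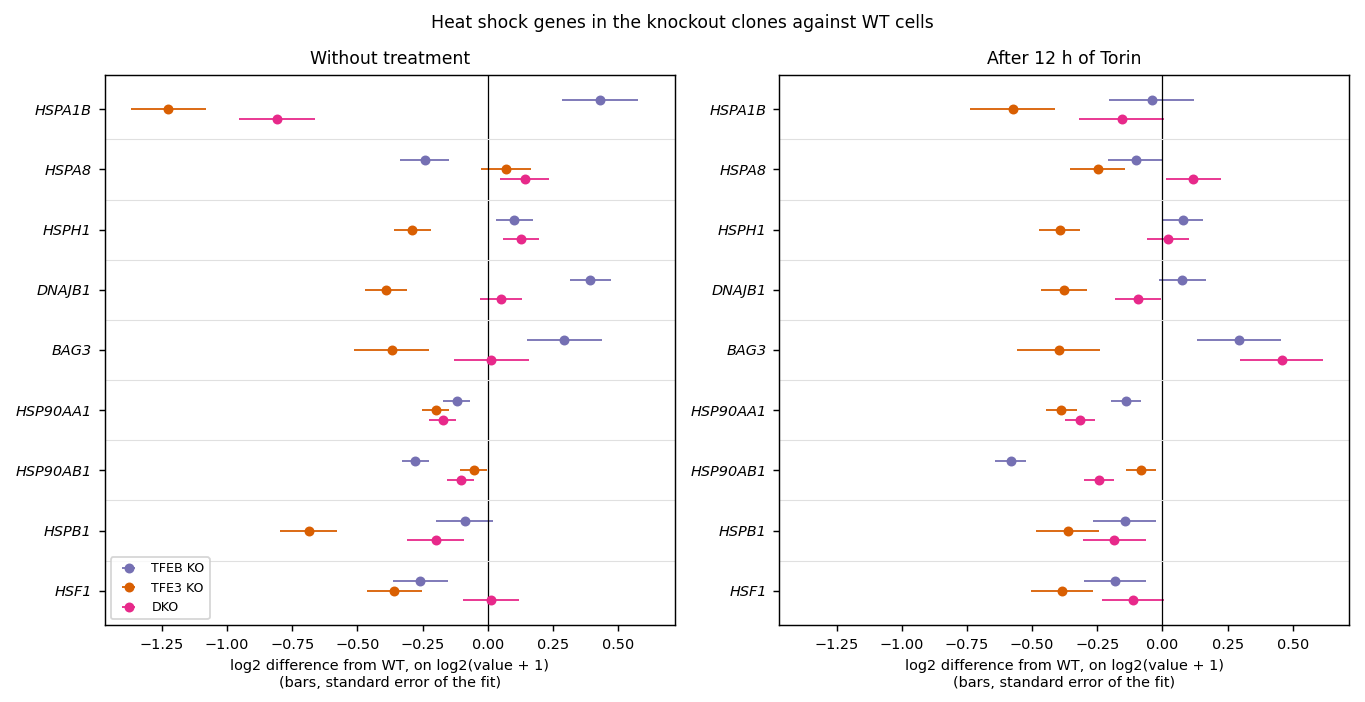
Log2 difference of each knockout clone from WT cells (horizontal axis, on log2(value + 1), bars for the standard error of the fit) for the 9 tested members (rows), without treatment on the left and after 12 h of Torin on the right. HSPA1B spans -1.22 to 0.43 without treatment and -0.57 to -0.04 after Torin, and HSP90AB1 lies lowest in TFEB KO on both sides.

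After Torin, TFE3 KO was lower than WT for 6 of 9 members, where 9.64% of all genes passed. They were HSP90AA1 (-0.39 ± 0.06, limma adjusted p 2.99e-06), HSPH1 (-0.39 ± 0.08, 4.52e-04), DNAJB1 (-0.38 ± 0.09, 0.00315), HSPA1B (-0.57 ± 0.16, 0.0157), HSF1 (-0.38 ± 0.12, 0.0301) and HSPB1 (-0.36 ± 0.12, 0.0457). The WT Torin libraries, used here and for TFEB KO and DKO below, also enter a comparison known when the members were chosen. In a fit to the compared libraries alone only HSP90AA1, HSPH1 and DNAJB1 passed, and leaving out 1 library at a time left between 3 and 5 members. HSPA1B was also lost with edgeR and DESeq2 (both -0.66) and with the identical column kept as a WT Torin library (-0.43). With a library left out, HSPA1B was lost without WT Torin replicate 2 (-0.54) or 3 (-0.61), DNAJB1 without WT Torin replicate 2 (-0.28), HSF1 without WT Torin replicate 3 (-0.28) or TFE3 KO Torin replicate 1 (-0.32) or 2 (-0.37), and HSPB1 without WT Torin replicate 2 (-0.35) or 3 (-0.38) or TFE3 KO Torin replicate 1 (-0.33) or 3 (-0.34).

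In TFEB KO after Torin, 1 of 9 members passed against WT, where 18.0% of all genes passed. It was HSP90AB1, at 4774 to 4973 against 7267 and 7279, a log2 difference of -0.58 ± 0.06 (limma adjusted p 3.94e-10). In DKO after Torin 2 of 9 passed, where 12.1% of all genes passed: HSP90AA1 (-0.32 ± 0.06, 9.83e-05) and HSP90AB1 (-0.24 ± 0.06, 0.00338). BAG3 was higher in DKO but did not pass (0.46 ± 0.16, 0.0531). BAG3 did pass with a minimum value of 5 (0.0496), without DKO Torin replicate 1 (0.0348), with a replicate block (0.0254) and in a fit to the compared libraries alone (0.0332). HSPA1B, so far apart among the controls, did not pass in TFEB KO (-0.04 ± 0.16, 0.896) or DKO (-0.16 ± 0.16, 0.588) after Torin. Between the Torin-treated single knockouts, 6 of 9 members passed, where 35.2% of all genes passed: BAG3 (-0.69 ± 0.14, 1.45e-04), HSPA1B (-0.53 ± 0.15, 0.00317), HSPH1 (-0.47 ± 0.07, 5.47e-07), DNAJB1 (-0.45 ± 0.08, 9.99e-06) and HSP90AA1 (-0.25 ± 0.05, 1.45e-04) were lower in TFE3 KO, and HSP90AB1 (0.50 ± 0.05, 1.04e-10) was higher.

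The other genes of the chaperone network were taken as a list of 52 genes in 9 roles, of which 49 were tested. With Torin, 29 of the 49 passed lower and 8 higher in TFE3 KO, and 33 lower and 4 higher in TFEB KO. In DKO 32 passed lower and 6 higher. Of all 13052 genes tested, 3388 passed lower and 3317 higher in TFE3 KO, and 2740 lower and 2265 higher in TFEB KO. In DKO 3421 of all genes passed lower and 3312 higher. The median log2 change of the list was -0.38, -0.50 and -0.45. All 8 subunits of TRiC, the ring that folds actin and tubulin, were lower in each knockout, by 0.32 to 1.07 on the log2 scale.

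The HSP90 cochaperones had the most called members. In TFE3 KO 7 of 9 were lower and 5 called, in TFEB KO 7 lower and 2 called, and in DKO 8 lower and 5 called. Of all 13052 genes tested, 3388, 2740 and 3421 passed lower in these knockouts, and 4.69%, 1.65% and 4.29% were called lower. STIP1, which hands clients from HSP70 to HSP90, fell from 284 to 105 in TFE3 KO (-1.43, limma adjusted p 9.65e-19), with -1.45 in TFEB KO and -1.39 in DKO. FKBP4 fell in each knockout too (-1.26, -1.33 and -1.23). PTGES3 and CHORDC1 were called in TFE3 KO (-1.12 and -1.10) and DKO (-1.07 and -1.21), and so was FKBP5 (-1.45 and -1.81), at group means of 3.6 to 15.3.

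Among J-domain proteins DNAJA1, a partner of HSPA8, was the one called, from 161 to 53.2 in TFE3 KO (-1.57, limma adjusted p 1.97e-20), with -1.43 in TFEB KO and -1.72 in DKO. Of the 7 exchange factors and cochaperones of HSP70, BAG2 was the one called in each knockout (-1.33, -1.18 and -1.37). HSPE1, the mitochondrial cochaperonin, was called in each (-1.28, -1.02 and -1.21), and CACYBP was too (-1.24, -1.12 and -1.27). HSPA4, an HSP110 relative of HSPH1, fell by 0.62 in TFE3 KO, 0.73 in TFEB KO and 0.74 in DKO without reaching the size of a call. HSPA14 (-1.17) was called lower in TFE3 KO, and the TRiC subunit TCP1 (-1.07) in DKO. HSF4, at group means of 9.2 to 18.4, rose with Torin by 0.83 in TFE3 KO, 0.57 in TFEB KO and 0.44 in DKO, while HSBP1, a regulator of HSF1, fell by 0.54, 0.28 and 0.42. HSPA1L, an HSP70 of the testis, was called higher in TFEB KO and DKO (1.13 and 1.77), but at no more than 3.74 in any library.

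**Figure D4:**
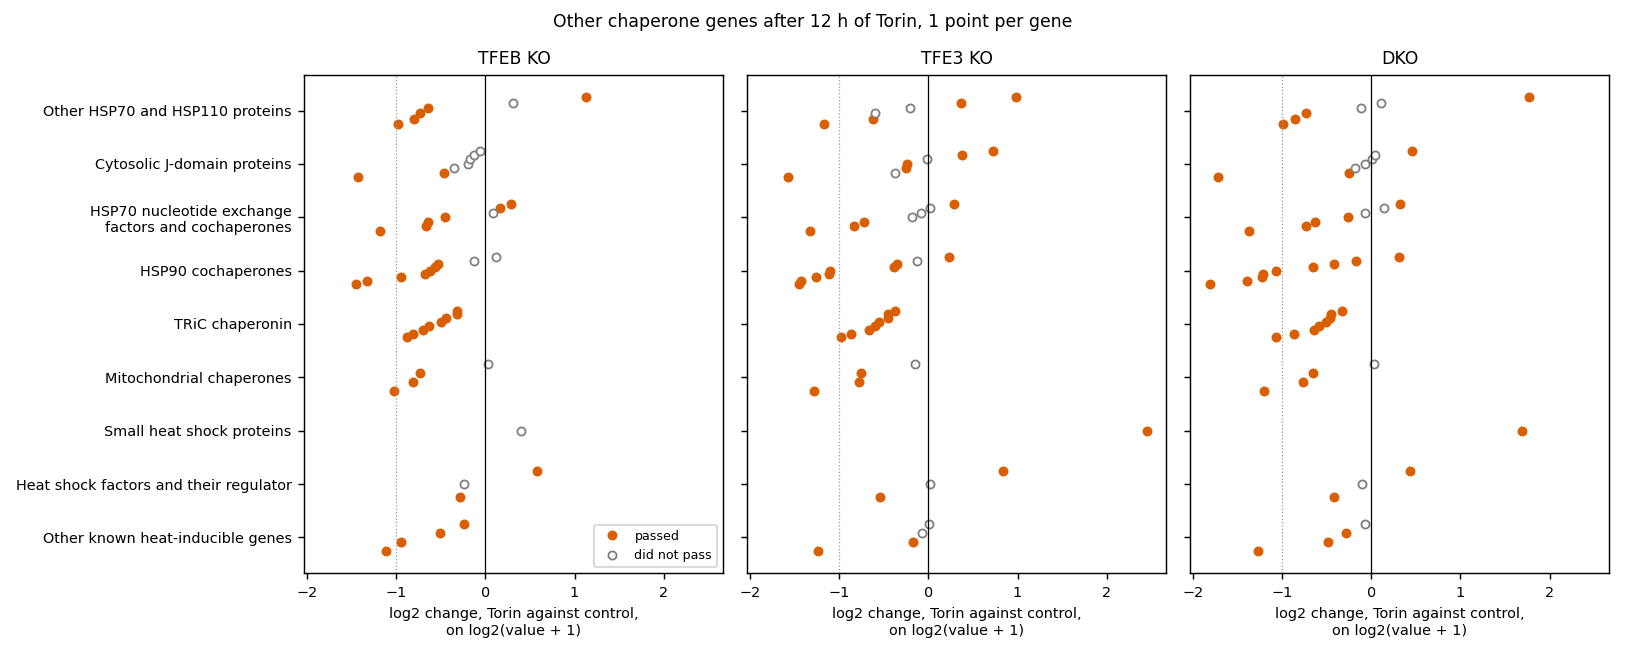
Log2 change with 12 h of Torin of the 49 other chaperone genes (1 point per gene, horizontal axis, on log2(value + 1)) by role (rows) in TFEB KO, TFE3 KO and DKO; filled points passed and open points did not. All 8 TRiC subunits lie below 0 in the 3 panels, and the lone small heat shock gene, CRYAB, lies at 2.46 in TFE3 KO and 1.69 in DKO.

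Without treatment the list moved less. Against WT, 4 of the 49 passed in TFE3 KO, all lower, 12 in TFEB KO, 10 of them lower, and 7 in DKO, 4 of them lower, beside the 9.41%, 14.6% and 13.1% of all genes given above; the shares of the list are not read as a result. CRYAB, a small heat shock protein related to HSPB1, was at 70.2, 70.9 and 74.9 in untreated WT, at 3.53, 3.99 and 2.96 in TFE3 KO control and at 0.467, 2.09 and 1.72 in DKO control, and these groups did not overlap. The log2 difference from WT was -4.03 in TFE3 KO (limma adjusted p 4.73e-24) and -4.98 in DKO (6.08e-28), against -0.54 in TFEB KO (0.0271). In TFEB KO control CRYAB was at 49.9, 52.1 and 46.3. HSPA6, another inducible HSP70, was called higher in TFEB KO (1.11, adjusted p 0.0159) at 3.42, 3.19 and 0.995 against 0 to 1.31 in WT.

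Between the single knockouts 9 of the 49 were higher and 9 lower in TFE3 KO without treatment, beside 29.9% of all genes that passed, and 8 and 8 after Torin, beside 35.2%. Their Torin responses differed for 6 of the 49, beside 7.68% of all genes, among them CRYAB (2.06, limma adjusted p 4.87e-08) and PTGES3 (-0.50, 6.75e-04). Against WT after Torin, 4 were lower in TFE3 KO and none higher, 10 lower and 4 higher in TFEB KO, and 4 lower and 2 higher in DKO, beside 9.64%, 18.0% and 12.1% of all genes. In WT cells HBSS and Torin differed for 27 of the 49, 18 of them higher in HBSS, beside 49.2% of all genes. DNAJA4, a J-domain protein, was at 6.67 and 7.12 in HBSS, was listed at 0 in both Torin libraries and was at most 1.37 in untreated WT. FKBP5 was higher in HBSS (1.22, 2.46e-04), and SERPINH1, the collagen chaperone, was lower (-1.44, 1.79e-08).

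The members were also compared by pattern over the 25 libraries, as the Pearson r of log2(value + 1), given as a description, since the libraries share groups and depth. HSPA1B, HSPA8, HSP90AA1, DNAJB1 and HSPH1 ran together, with r between 0.85 and 0.97 for each pair, and BAG3 had r of 0.71 to 0.83 with each of these. HSP90AB1 had r of 0.39 to 0.55 with those 5 genes, HSPB1 -0.08 to 0.23, and HSF1 0.19 to 0.33. Among the 9856 genes with a mean value of at least 5, those most like HSPA1B other than members were SRPRB (0.957), MANF (0.952), HSPA5 (0.949), SDF2L1 (0.948) and PIM2 (0.942). HSPA5, the HSP70 of the endoplasmic reticulum, was at 1741 ± 33.8 in untreated WT, 2101 ± 268 in TFEB KO control, 687 ± 28.8 in TFE3 KO control and 747 ± 62.2 in DKO control, and between 306 and 509 in every treated group, as group means.

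The genes most like HSPA8 were CCT2 (0.963), MSH6 (0.959), HSPE1 (0.957), RRP7A (0.955) and TIMM8A (0.954). CCT2, a TRiC subunit, was at 577 ± 19.7 in untreated WT and 424 ± 0.685 in WT Torin. MSH6, a mismatch repair protein, was at 275 ± 27.8 in untreated WT and 124 ± 8.36 in WT Torin. The lists of HSPA1B and HSPA8 shared no gene.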

How the data were processed

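Total RNA of 501mel cells at about 80% confluency was made into QuantSeq Forward 3′ end libraries from 500 ng and sequenced on a NextSeq 550. Per the study's methods, single-end reads were trimmed of adapters and poly-A with trim_galore (cutadapt 2.10), checked with FastQC 0.11.9, mapped to hg38 with STAR 2.7.8a and normalised with edgeR by the authors. The deposited values are a normalised signal per gene symbol, made by the authors from reads counted in genes. The counter, the annotation, the scaling method and the filter behind the 13523 genes are not given in the sources used here. Each of the 27 columns rises in steps of 1 read: 100% of entries are a whole number of steps (tolerance 0.01 read), and read numbers were recovered by division.

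Groups came from the labels. The 2 identical columns were left out, which left 25 libraries of 4147050 to 6526392 reads. Depth and floors cover counting error only, and PCR copies are not told apart. The members and all lists were chosen with earlier results of these data known. Genes that reached 1 in 3 libraries or more (13052 genes; 471 were not tested) were fitted on log2(value + 1) with limma 3.58.1 (lmFit, then eBayes with trend and robust; R 4.3.3), with 1 mean per group, and p-values were adjusted over all genes tested by the Benjamini-Hochberg method. A gene passed at an adjusted p under 0.05 and was called when its log2 change was also at least 1 in size. The tests are 2-sided and measure the spread between the libraries, which may be technical. The log2(value + 1) scale understates changes of low genes. The procedure was tested on simulated data first.

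Named genes were all members, the genes of the chaperone list that were called and up to 2 more per role with the lowest adjusted p among those that passed, TFE3, TFEB and the melanocyte markers as checks, and the 5 genes most like HSPA1B and HSPA8 by Pearson r. HSPA2 and HSPB8 of the chaperone list were not analysed here, and HSPB6 was not tested. Positions are from GENCODE v44 (hg38) and promoters from RefSeq (GRCh38.p14). Alternatives were the pseudocount (0.1), the filter (none, or a value of 5), median-of-ratios scaling, edgeR 4.0.16 and DESeq2 1.42.0 on recovered reads, a replicate block, only the compared libraries, the identical column kept in either group, HSPA1A and HSPA1B summed, and each library left out in turn.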

Additional observations from a re-analysis of the deposited data

Results flagged for a closer look

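The Torin response of 3 members differed between TFE3 KO and TFEB KO by the interaction term of the limma fit. The difference of the log2 changes, TFE3 KO minus TFEB KO, was 1.121 for HSPA1B (adjusted p 1.60e-04), -0.4581 for HSPA8 (0.0289) and 0.2762 for HSP90AB1 (0.0125). HSPA1B was at 23.9 to 29.5 in TFE3 KO control libraries and at 81.9 to 90.6 in TFEB KO control libraries, and at 6.45 to 6.90 and 9.16 to 11.6 after Torin. The control levels moved with the difference, and their part in it was not tested. HSPA8 was at 472, 615 and 673 in the TFEB KO controls, the widest spread of any control group, and its difference did not pass without the library at 472 (-0.31). Each genotype is 1 clone, so clone and genotype cannot be told apart.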

How the results depend on the processing

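Over the 13 tested comparisons the log2 change of each tested member was refitted under each alternative, which gave 1809 values. Of these, 1720 kept their side of the threshold, 69 no longer passed, 20 passed that had not, and none that passed in either fit changed sign, although 26 values that passed in neither did.

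The falls of HSPA1B, HSPA8, HSPH1, DNAJB1 and HSP90AA1 with Torin passed in the 3 knockouts under every alternative run. Among counts of members that passed, that of DKO against untreated WT (2) became 1 with edgeR and 1 with only the compared libraries, and was 1 to 2 with a library left out. That of TFE3 KO against WT after Torin (6) became 3 with only the compared libraries and was 3 to 5 with a library left out. That of TFEB KO against WT after Torin (1) was 1 to 2, that of the differing Torin responses (3) was 1 to 4, and that of HBSS against Torin (4) was 2 to 3 with a library left out and became 1 with the identical column kept as a WT Torin library. The cause of these shifts was not tested.

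Over all genes, counts that passed moved by over 1.5 times where the WT Torin group changed. Leaving out WT Torin replicate 2 or 3 took TFE3 KO against WT after Torin from 1258 to 598 and 645, TFEB KO from 2343 to 1361 and 1172, and DKO from 1574 to 818 and 802. Keeping the identical column there gave 1948, 1489 and 2599, and took HBSS against Torin from 6416 to 2694. Leaving out TFEB KO control replicate 1 took TFEB KO against untreated WT from 1911 to 1266.

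Libraries of one number did not deviate together (r over 0.1) in every pair of any comparison (r from -0.29 to 0.24), so the main fit used no pairing. With so few pairs in each comparison, this check cannot exclude a pairing. With a replicate block, HSPB1 in TFE3 KO against WT after Torin (-0.36, limma adjusted p 0.0544) and HSPA8 in HBSS against Torin (-0.26, 0.0923) no longer passed, and BAG3 in DKO against WT after Torin did (0.50, 0.0254). The counts of members with the replicate block stayed within 1.5 times. The reads assigned to HSPA1A lie under the limit of 3 in every library, so no change in them was detectable at this depth.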

Other observations

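The genes whose pattern was most like HSPA1B encode proteins of the endoplasmic reticulum, apart from the kinase PIM2. MANF, a secreted stress protein of that compartment, was at 264 ± 52.4 (SD, n = 3) in untreated WT and 260 ± 9.58 in TFEB KO control, but at 104 ± 3.57 in TFE3 KO control and 126 ± 24.8 in DKO control. SRPRB, a subunit of the receptor that docks ribosomes on the endoplasmic reticulum, was at 148 ± 19.6 in untreated WT, 153 ± 4.96 in TFEB KO control and 116 ± 3.06 in TFE3 KO control. SDF2L1, a cochaperone of HSPA5, was at 389 ± 31.8 in TFEB KO control and 45.9 ± 3.67 in TFEB KO Torin, and at 175 ± 6.01 in TFE3 KO control and 33.6 ± 2.55 in TFE3 KO Torin. These genes were picked for their likeness to HSPA1B, so the values are a description.

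CRYAB, the small heat shock gene that was low in the untreated TFE3 KO and DKO clones, was at 23.5, 23.4 and 23.7 in TFE3 KO and at 8.15, 6.45 and 5.12 in DKO after Torin, against 65.9 and 58.5 in WT. HSPB1, of the same family, was at 34.8 to 39.6 in TFE3 KO control and 46.6 to 58.9 in DKO control, against 56.8 to 63.6 in untreated WT.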
